A study of Mus musculus with 7 samples.

Results

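Sox10, Foxd3, Tfap2a, Tfap2b, Phox2a, Ret, Ednrb and Erbb3 are transcription factors and receptors of the neural crest and of the glia and autonomic neurons that descend from it. These 8 genes were taken by symbol from the 25461 genes of the expression table, by a rule that names them for what they are known to do and uses no measured value, although earlier results of these data were known when they and the gene lists were chosen. RNA-seq was carried out on whole mouse embryos of the B6C3F1 strain at embryonic day 11.5, 3 of them global SLMAP3 knockouts (KO) and 4 wild type (WT), with 1 library per embryo. SLMAP3 is the long product of Slmap, a membrane-anchored protein of the STRIPAK complex. In the KO line, LoxP sites flanked exon 3 of Slmap and were recombined by a ubiquitous CMV-driven Cre, after which the deleted allele was passed on through the germ line without Cre, so that the deletion was not limited to the crest or any other tissue. No treatment is named for either group. The tail of each embryo had been removed for genotyping, so that the most caudal neural crest and neural tube were absent from the RNA.

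The neural crest forms at the border between the neural plate and the surface ectoderm, leaves the dorsal neural tube and migrates through the embryo. AP-2 factors, FOXD3 and SOX10 act in turn to specify these cells and keep them multipotent. SOX10 then remains on in glia and melanoblasts, PHOX2A acts in autonomic neurons, and the receptors EDNRB, RET and ERBB3 guide the migration and survival of enteric, autonomic and glial precursors. At this stage crest derivatives populate the pharyngeal arches, the dorsal root and sympathetic ganglia, the nerves and the gut.

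None of the 8 genes passed the test between KO and WT embryos after adjustment over all genes. Tfap2a averaged 122% of its WT level in KO embryos, 9.78 against 8.04 FPKM, with all 3 KO values above all 4 WT values. Erbb3 averaged 83.6% of its WT level, 7.05 against 8.44 FPKM, with all 3 KO values below all 4 WT values. The other 6 genes overlapped between the genotypes and their averages lay within 0.11 of 0 on the log2 scale. FPKM is the number of fragments scaled to transcript length and library depth, so that levels can be compared between genes. The fold changes given here are differences of log2(FPKM + 1), KO minus WT, with the standard error (SE) of limma, a linear model that shares information on spread between genes.

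Several libraries stood apart before any comparison was made. The embryos KOAC10-5 (KO), KOAC10-7 and KOAC10-2 (both WT) held 1.30 to 5.18 FPKM of Afp, the fetal liver and yolk sac protein, against 255 to 376 FPKM in the other 4. Xist, which marks female cells, was at 0.330 FPKM in KOAC10-8 (KO) and 0.0853 FPKM in KOAC9-1 (WT) and at 158 to 181 FPKM in the other 5. Depth, recovered from the spacing of low FPKM values, came to between 54700000 and 82100000 counts on genes per embryo. Slmap itself averaged 17.4 ± 1.92 FPKM (SD, n = 3) in the KO group and 26.7 ± 4.04 FPKM (n = 4) in the WT group, and all KO embryos were below all WT embryos. That value sums all Slmap transcripts, including the shorter ones that the deletion leaves. Its log2 fold change of -0.59 had an adjusted p of 0.278 (limma).

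The 8 genes covered a wide range of levels. Ednrb was the highest, at a mean of 23.8 FPKM over the 7 embryos, followed by Tfap2b at 15.4, Sox10 at 9.40, Tfap2a at 8.78, Erbb3 at 7.84, Foxd3 at 3.17, Ret at 2.96 and Phox2a at 1.90 FPKM. Sox10 and Tfap2a were not separated in this order, with Sox10 higher in 5 of 7 embryos. Nor were Tfap2a and Erbb3, with Tfap2a higher in 4 of 7, nor Foxd3 and Ret, with Foxd3 higher in 5 of 7. Every other neighbouring pair kept its order in 7 of 7 embryos. The crest-derived lineages are a minority of the cells of a whole embryo, and in bulk RNA fewer cells of a type and less RNA per cell cannot be told apart.

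**Figure D1:**
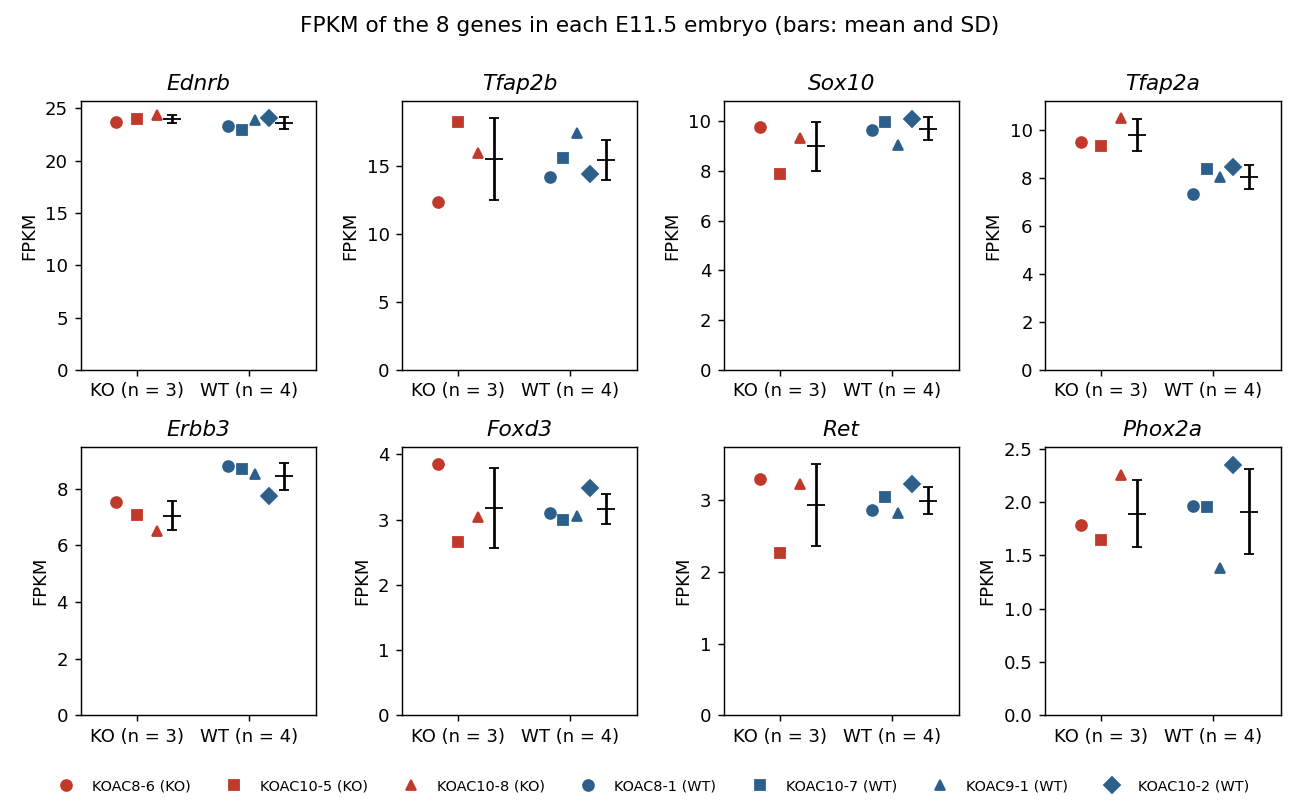
FPKM (vertical axes, from 0) of the 8 genes in the 3 KO (red) and 4 WT (blue) embryos, in order of level, with 1 point per embryo and the mean and SD beside each group. The genotypes separate for Tfap2a (9.30 to 10.53 against 7.33 to 8.43 FPKM) and Erbb3 (6.52 to 7.55 against 7.74 to 8.82 FPKM) and overlap for the other 6 genes.

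Among the transcription factors that open the crest programme, Tfap2a encodes AP-2alpha, which acts in the neural plate border, the premigratory crest and the surface ectoderm. It lies on the minus strand at chr13:40715302-40738376 (GRCm38). Its level was 9.50, 9.30 and 10.53 FPKM in the KO embryos KOAC8-6, KOAC10-5 and KOAC10-8. In the WT embryos KOAC8-1, KOAC10-7, KOAC9-1 and KOAC10-2 it was 7.33, 8.38, 8.02 and 8.43 FPKM. The highest KO embryo was KOAC10-8 and the lowest WT embryo KOAC8-1, and the genotypes did not overlap. The KO mean was 9.78 ± 0.658 FPKM (SD, n = 3) and the WT mean 8.04 ± 0.507 FPKM (n = 4). The log2 fold change was 0.25 (SE 0.07, 95% interval 0.08 to 0.42), with an adjusted p of 0.324 (limma). An exact permutation test over the 35 splits of the embryos gave p = 0.0286 (two-sided), the smallest that this design allows.

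The difference in Tfap2a stayed above 0 when single embryos were left out, between 0.20 without KOAC10-8 and 0.28 without KOAC10-5. Without the 3 embryos low in Afp it was 0.34. Embryo labels carry a series number (8, 9 or 10) whose meaning is not stated. The log2 ratio of KO to WT was 0.37 within series 8 (1 against 1 embryo) and 0.24 within series 10 (2 against 2), while series 9 held only a WT embryo.

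Tfap2b encodes AP-2beta, a close relative of AP-2alpha that is used in the crest, the sympathetic ganglia, the limb and the kidney (chr1:19208914-19238576, plus strand). Its level was 12.3, 18.2 and 15.9 FPKM in the KO embryos KOAC8-6, KOAC10-5 and KOAC10-8, so that the lowest and the highest of all 7 embryos were both KO. The WT embryos KOAC8-1, KOAC10-7, KOAC9-1 and KOAC10-2 had 14.2, 15.6, 17.4 and 14.4 FPKM. The log2 fold change was -0.01 (SE 0.13, 95% interval -0.32 to 0.31, adjusted p = 0.988, limma). The interval leaves room for a difference in either direction as large as that of Tfap2a.

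Foxd3 encodes a forkhead repressor of premigratory crest that maintains multipotent progenitors (chr4:99656299-99658622, plus strand). The KO embryos KOAC8-6, KOAC10-5 and KOAC10-8 had 3.86, 2.66 and 3.04 FPKM, and the WT embryos KOAC8-1, KOAC10-7, KOAC9-1 and KOAC10-2 had 3.10, 2.99, 3.05 and 3.49 FPKM. The highest and the lowest values again both came from KO embryos. The group means, 3.18 ± 0.611 FPKM (SD, n = 3) and 3.16 ± 0.228 FPKM (n = 4), gave a log2 fold change of 0.00 (SE 0.11, 95% interval -0.26 to 0.26).

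Sox10 encodes the SoxE factor of migrating crest, glia and melanoblasts (chr15:79154908-79165240, minus strand). The KO embryos KOAC8-6, KOAC10-5 and KOAC10-8 had 9.77, 7.89 and 9.34 FPKM. The WT embryos KOAC8-1, KOAC10-7, KOAC9-1 and KOAC10-2 had 9.64, 9.98, 9.06 and 10.1 FPKM. The genotypes overlapped, and the lower KO mean (9.0 ± 0.984 against 9.71 ± 0.477 FPKM) rested on KOAC10-5, the lowest of all embryos. The log2 fold change was -0.10 (SE 0.08, 95% interval -0.30 to 0.09, adjusted p = 0.650, limma), and it ranged from -0.16 to 0.03 over 20 alternative fits.

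Phox2a encodes a homeodomain factor of noradrenergic and autonomic neurons, which is also used in the oculomotor and trochlear nuclei of the brain (chr7:101818313-101822726, plus strand). It was the lowest of the 8 genes, with 1.78, 1.64 and 2.25 FPKM in KO embryos KOAC8-6, KOAC10-5 and KOAC10-8 and 1.96, 1.95, 1.38 and 2.35 FPKM in WT embryos KOAC8-1, KOAC10-7, KOAC9-1 and KOAC10-2. Both extremes were WT embryos. The means were 1.89 ± 0.317 and 1.91 ± 0.399 FPKM, and the 95% interval of the log2 fold change ran from -0.32 to 0.32. At an average of 148 normalised counts per embryo, counting error alone gave a coefficient of variation of 8.23%, against 17.7% observed over the 7 embryos.

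Ret encodes the receptor tyrosine kinase for GDNF family ligands, used by enteric and autonomic precursors, motor and sensory neurons and the ureteric bud (chr6:118151745-118197718, minus strand). Its level was 3.29, 2.26 and 3.23 FPKM in the KO embryos KOAC8-6, KOAC10-5 and KOAC10-8. In the WT embryos KOAC8-1, KOAC10-7, KOAC9-1 and KOAC10-2 it was 2.86, 3.05, 2.82 and 3.22 FPKM. KO embryo KOAC10-5 was the lowest of all, while the other 2 KO embryos were the highest. The log2 fold change was -0.03 (SE 0.11, 95% interval -0.30 to 0.24). Its co-receptor Gfra1 averaged 15.3 ± 1.52 (KO) and 15.9 ± 0.563 FPKM (WT), and the ligand Gdnf, 0.885 ± 0.261 and 0.899 ± 0.246 FPKM, was below the mean of 1 FPKM set for testing.

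Ednrb encodes the endothelin-3 receptor of melanoblasts and enteric crest, and is also found in vessels and neural progenitors. It lies on the minus strand at chr14:103814625-103844402, on the same chromosome as Slmap and 77.3 Mb away from it. It was both the highest and the steadiest of the 8 genes. The KO embryos KOAC8-6, KOAC10-5 and KOAC10-8 had 23.7, 24.0 and 24.4 FPKM, and the WT embryos KOAC8-1, KOAC10-7, KOAC9-1 and KOAC10-2 had 23.3, 22.9, 23.9 and 24.1 FPKM. Over the 7 embryos the coefficient of variation was 2.15%, against 1.36% from counting error. The log2 fold change of 0.03 had a 95% interval of only -0.07 to 0.13. Its ligand Edn3 averaged 5.63 ± 0.519 (KO) and 6.26 ± 0.242 FPKM (WT) (log2 fold change -0.13, adjusted p = 0.526, limma), and the related receptor Ednra 15.0 ± 0.390 and 15.4 ± 0.642 FPKM.

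Erbb3 encodes the neuregulin receptor of Schwann cell precursors, which signals together with ERBB2 and is also used in the mesenchyme around the heart, in muscle precursors and in epithelia (chr10:128567523-128589652, minus strand). The KO embryos KOAC8-6, KOAC10-5 and KOAC10-8 had 7.55, 7.09 and 6.52 FPKM. The WT embryos KOAC8-1, KOAC10-7, KOAC9-1 and KOAC10-2 had 8.82, 8.69, 8.51 and 7.74 FPKM. All KO embryos lay below all WT embryos, although KOAC8-6 (KO) and KOAC10-2 (WT) were close to each other. The means were 7.05 ± 0.514 FPKM (SD, n = 3) and 8.44 ± 0.481 FPKM (n = 4). The log2 fold change was -0.23 (SE 0.07, 95% interval -0.40 to -0.06), with an adjusted p of 0.354 (limma). The exact permutation test gave p = 0.0571 (two-sided), since another split of the embryos gave a difference at least as large.

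Erbb3 averaged lower in KO embryos in each of the 20 alternative fits, from -0.27 to -0.18, the smallest difference being that without KOAC10-8. Within the label series the log2 ratio of KO to WT was -0.22 in series 8 and -0.27 in series 10. ERBB3 depends on a partner for its kinase activity, and its partner Erbb2 averaged 16.5 ± 1.12 (KO) and 16.5 ± 0.375 FPKM (WT) (log2 fold change 0.00, 95% interval -0.14 to 0.14). Nrg1, the ligand, averaged 5.11 ± 0.477 (KO) and 4.46 ± 0.461 FPKM (WT) (log2 fold change 0.16, adjusted p = 0.541, limma).

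**Figure D2:**
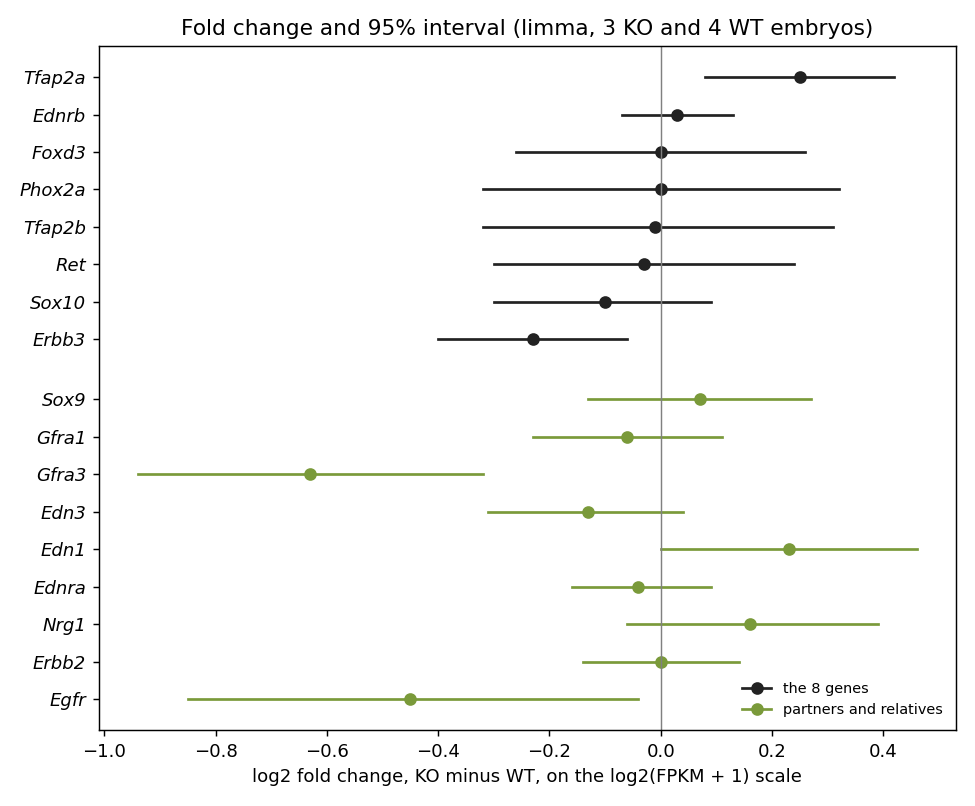
Log2 fold change, KO minus WT, on the log2(FPKM + 1) scale (horizontal axis) with 95% intervals from limma for the 8 genes (black) and 9 of their partners and relatives (green). Among the 8 genes, the intervals of Tfap2a (0.08 to 0.42) and Erbb3 (-0.40 to -0.06) leave out 0, and that of Ednrb is the narrowest.

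These counts have to be read against the whole table. All 8 genes passed the filter on low values (a mean of 1 FPKM or more), as did 16095 of the 25461 genes. After adjustment 0 of the 8 genes had p under 0.05 by limma, against 6 of all genes tested (0.0373%). At an unadjusted p under 0.05 there were 2 of the 8, Tfap2a and Erbb3, against 11.5% of all genes. Groups that did not overlap were likewise found for 2 of the 8 genes, against 11.6% of all genes. For so few genes, 2 of 8 is not far from these shares. Tfap2a shared its direction with 5.27% of all genes (unadjusted p under 0.05 and higher in KO), and Erbb3 with 6.19% (lower in KO). The median log2 fold change was -0.004 for the 8 genes and 0.011 for all genes tested.

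Ratios between related genes within an embryo do not depend on how its library was scaled. The log2 ratio of Erbb3 to Erbb2 was -1.24, -1.17 and -1.27 in the KO embryos KOAC8-6, KOAC10-5 and KOAC10-8. In the WT embryos KOAC8-1, KOAC10-7, KOAC9-1 and KOAC10-2 it was -0.93, -0.87, -0.97 and -1.10. The genotypes did not overlap and the mean difference was -0.26, with p = 0.0571 by the exact permutation test and 0.392 after adjustment over 8 ratios. The ratio of Tfap2a to Tfap2b averaged 0.29 higher in KO embryos on the log2 scale, with overlap between the genotypes (exact permutation p = 0.200), and the difference was 0.15 without KOAC8-6 and 0.45 without KOAC10-5. Erbb3 to Sox10, a ratio between a glial receptor and the glial factor, averaged 0.15 lower in KO embryos (difference -0.15) and also overlapped (exact permutation p = 0.257), the difference being -0.06 without KOAC10-8 and -0.24 without KOAC10-5. The ratios Foxd3 to Sox10, Ednrb to Sox10, Ret to Phox2a and Ednrb to Ednra differed by between -0.05 and 0.14, with exact permutation p between 0.143 and 0.771. Ret to Phox2a ran from -0.18 to 0.07 as single embryos were left out, Foxd3 to Sox10 from 0.03 to 0.17 and Ednrb to Sox10 from 0.05 to 0.21.

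**Figure D3:**
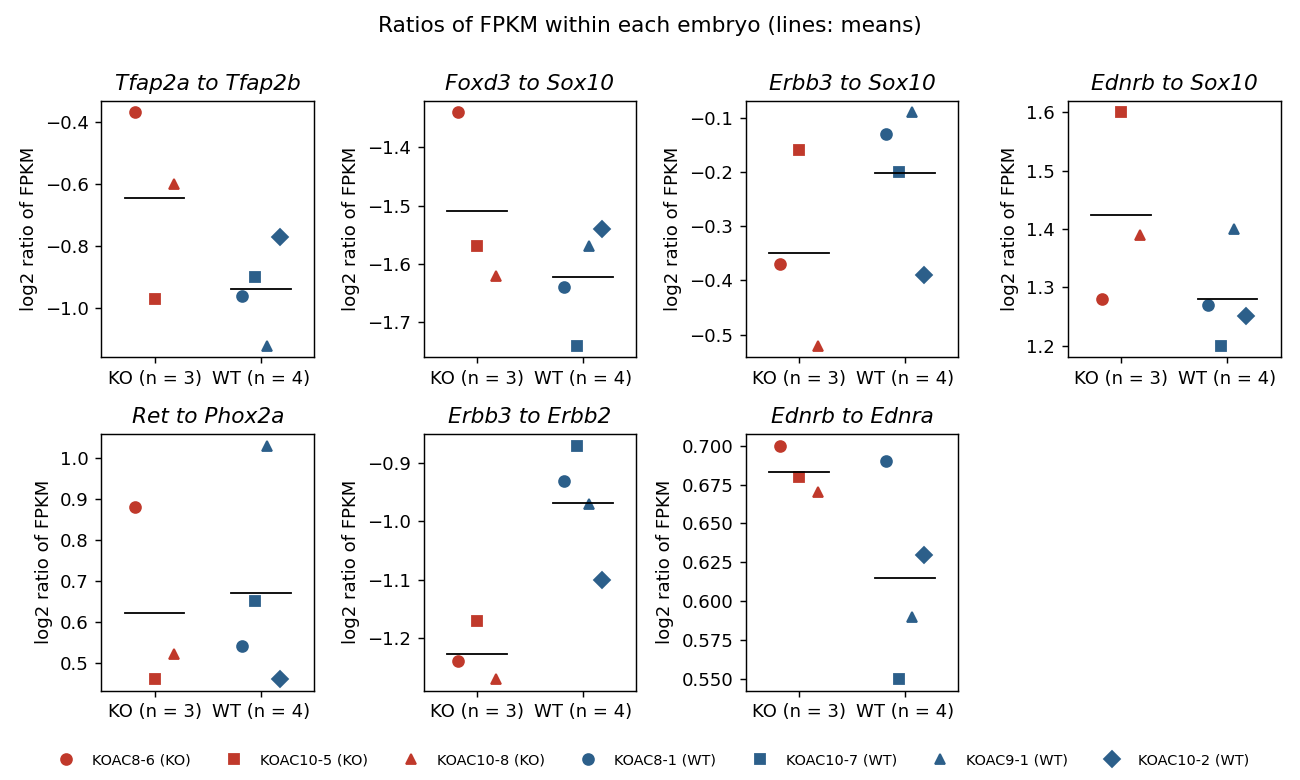
Log2 ratios of FPKM between related genes within each embryo (vertical axes, each with its own range), with 1 point per embryo, KO in red and WT in blue, and a line at the mean of each group. The ratio of Erbb3 to Erbb2 lies between -1.27 and -1.17 in KO and between -1.10 and -0.87 in WT embryos, while the other 6 ratios shown overlap.

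The 8 genes did not vary as a block over the embryos. Of their 28 pairs, 17 had a positive and 11 a negative Pearson correlation over the 7 embryos, with a median r of 0.05. The highest was between Sox10 and Ret (r = 0.89, Spearman rho = 0.61, exact permutation p = 0.0226 for r, 0.211 adjusted over the 28 pairs). It fell to 0.04 without the 2 embryos farthest from the median of Sox10, so that it rested on those embryos. Foxd3 and Ret had r = 0.77 (rho = 0.61, exact permutation p = 0.0516, adjusted 0.257) and 0.84 without the 2 farthest embryos, and Sox10 and Foxd3 had r = 0.70 (rho = 0.54, exact permutation p = 0.0972, adjusted 0.340) and 0.32. Embryo KOAC10-5 was the lowest of all 7 in Sox10, Foxd3 and Ret, and the highest in Tfap2b. Foxd3 and Tfap2b ran opposite to each other (r = -0.90, rho = -0.82, exact permutation p = 0.00833, adjusted 0.117, and r = -0.73 without the 2 farthest embryos).

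Tfap2a and Erbb3 gave the lowest correlation of all pairs (r = -0.92, rho = -0.93, exact permutation p = 0.00357, adjusted 0.10), and r was -0.82 without the 2 farthest embryos. Both genes differed on average between the genotypes, so that this correlation holds that difference, and neither genotype has the embryos needed for a correlation of its own. Ednrb and Erbb3 had r = -0.80 (rho = -0.79, exact permutation p = 0.0325, adjusted 0.228), and -0.64 without the 2 farthest embryos. Sox10 and Erbb3, both glial, had r = 0.39 (rho = 0.36, exact permutation p = 0.413, adjusted 0.890) and 0.53. No pair passed after adjustment, and no label series holds enough embryos to repeat a correlation within it.

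Among 10492 genes whose mean reached 5 FPKM, the patterns most like that of each gene over the 7 embryos were picked by Pearson r, as a description. They were Pcnx (0.967) and Tcf15 (0.951) for Sox10, Cabin1 (0.955) and Zc3h7b (0.946) for Foxd3, and Mettl8 (0.983) and Snhg3 (0.979) for Tfap2a. For Tfap2b they were Tmx4 (0.978) and Smpx (0.972), and for Phox2a Ndst2 (0.984) and Rtel1 (0.971). For Ret they were Dap3 (0.952) and Axin1 (0.945), for Ednrb Eme1 (0.982) and Nhlh1 (0.975), and for Erbb3 Stac3 (0.996) and Spg20 (0.994). With 7 points and this many genes, values near 1 arise for any gene. None of the 8 genes was among the nearest of another, but Foxd3, Ret and Phox2a averaged under 5 FPKM and could not be returned by this search.

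The wider crest programme was followed with 7 lists of genes, none of whose members passed after adjustment by limma. In the list of crest specifiers and border genes, 11 of the 15 genes tested averaged higher in KO embryos and the median log2 fold change was 0.12. At an unadjusted p under 0.05, 4 of 15 were higher and 0 lower, against 5.27% and 6.19% of all genes. Pax3, the paired-box factor of the dorsal neural tube, crest and muscle precursors, averaged 14.1 ± 1.43 (KO) and 11.0 ± 0.617 FPKM (WT) (log2 fold change 0.33, adjusted p = 0.286). Tfap2c, another AP-2 gene, was at 6.68, 7.32 and 7.99 FPKM in KO embryos KOAC8-6, KOAC10-5 and KOAC10-8 and at 5.33, 5.42, 4.26 and 5.87 FPKM in WT embryos KOAC8-1, KOAC10-7, KOAC9-1 and KOAC10-2 (log2 fold change 0.43, adjusted p = 0.286). Like Tfap2a and unlike Tfap2b, it did not overlap between the genotypes. The same held for Pax3 and Snai1, so that 3 of the 15 genes were higher without overlap, against 11.6% of all genes without overlap in either direction. Snai1, the zinc-finger repressor of epithelial genes, gave 0.30 (adjusted p = 0.348) and Id2, an inhibitor of bHLH factors, 0.29 (adjusted p = 0.424). Sox9, the SoxE relative of Sox10, averaged 34.8 ± 3.06 and 33.0 ± 2.61 FPKM (log2 fold change 0.07).

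The specifier list depended on the embryos used. Its median was 0.02 without KOAC10-8, with 3 genes under an unadjusted 0.05 where 7.80% of all genes were. It was 0.18 without the 3 embryos low in Afp, with 6 such genes where 1730 of 16046 genes in all were. Pax3, Snai1 and Id2 are also made outside the crest. Of 9 neural progenitor genes, 7 were higher in KO embryos at an unadjusted p under 0.05, among them Pax6 (0.50) and Sox2 (0.48), and their summed level was 1218 to 1467 FPKM over the KO and 1032 to 1217 FPKM over the WT embryos. The share over all genes was 5.27%. The count was 4 with a median of 0.25 (from 0.38) without KOAC10-8, where 7.80% of all genes were under that threshold in either direction. It was 5 with the label series as a block (8.69% of all genes). Of the 11 surface ectoderm genes tested, where AP-2 genes are also active, 0 had an unadjusted p under 0.05 by limma, and their sums overlapped (81.0 to 95 against 72.8 to 101 FPKM). The part of neural progenitors in the values of Tfap2a and of the specifiers was not tested.

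Glial and Schwann cell precursor genes were split. Of 11 tested, 3 were lower in KO embryos at an unadjusted p under 0.05 and 0 higher, against 6.19% and 5.27% of all genes, and the median log2 fold change was -0.05. Pmp22, a peripheral myelin protein that is also widely expressed, was at 14.4, 17.5 and 14.3 FPKM in KO embryos KOAC8-6, KOAC10-5 and KOAC10-8 and at 19.9, 19.1, 24.9 and 18.4 FPKM in WT embryos KOAC8-1, KOAC10-7, KOAC9-1 and KOAC10-2 (log2 fold change -0.39, adjusted p = 0.347, limma). Ngfr, the p75 receptor of crest and Schwann cell precursors, averaged 19.8 ± 1.58 and 22.3 ± 0.824 FPKM (-0.17, adjusted p = 0.403), without overlap. The count of lower genes was 1 without WT embryo KOAC9-1, where 7.85% of all genes were under that threshold in either direction. It was also 1 without WT embryo KOAC10-2 (9.96% of all genes) and with the label series as a block (8.69%). It was 2 without any other single embryo (7.80% to 16.4%), with 1 higher as well without KOAC10-5 (16.4%).

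Erbb3 is also used in muscle precursors. Of 10 skeletal muscle genes tested, 8 were lower in KO embryos at an unadjusted p under 0.05 and the other 2 also averaged lower, with a median log2 fold change of -0.65, against 6.19% of all genes lower at that threshold. Their summed level was 219 to 255 FPKM over the KO and 331 to 431 FPKM over the WT embryos, with Acta1 at -1.36 and Tnnt1 at -0.97. Red cell genes were also lower, with 5 of 9 at an unadjusted p under 0.05 and a summed level of 16604 to 21314 FPKM over the KO and 24345 to 31707 FPKM over the WT embryos. No gene of either list passed after adjustment by limma. Their part in the values of Erbb3 and the glial genes was not tested.

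**Figure D4:**
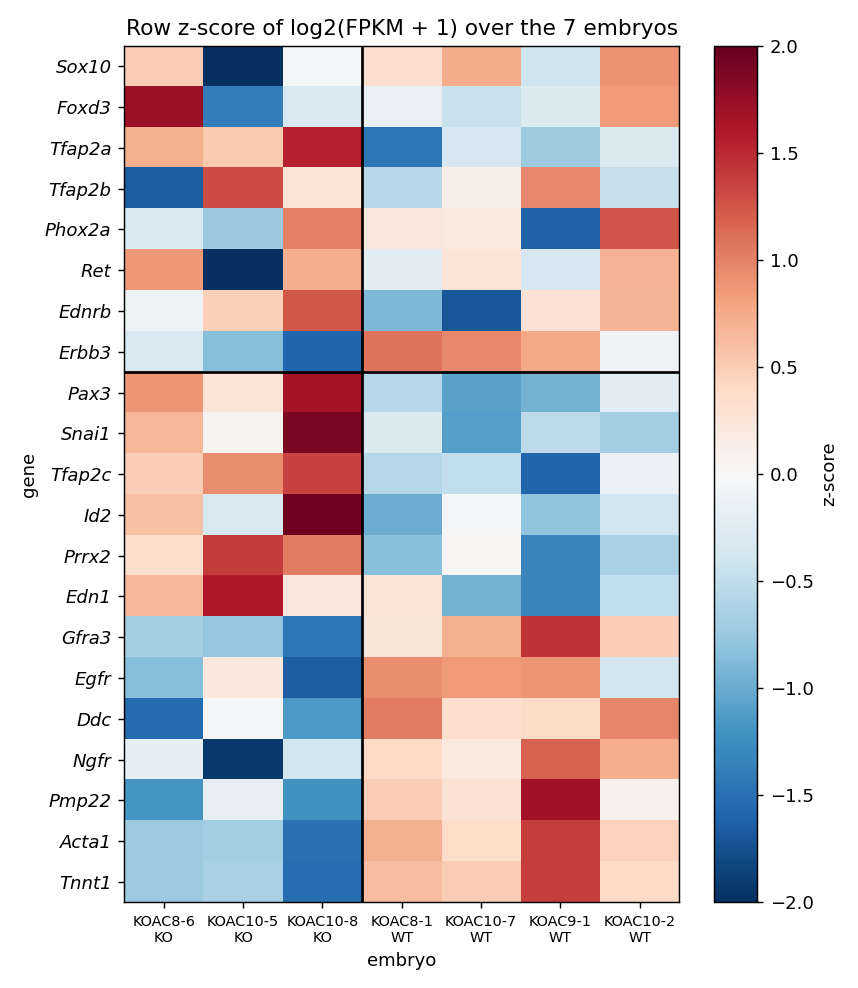
Level of the 8 genes (above the line), of 11 pathway genes with an unadjusted p under 0.05 and of the muscle genes Acta1 and Tnnt1 in each embryo, as the z-score of log2(FPKM + 1) within a row (red high, blue low), with 3 KO embryos left of the line and 4 WT embryos right of it. Tfap2a is high and Erbb3 low in the 3 KO embryos, KOAC10-8 being the extreme in both, and KOAC10-5 is the lowest in Sox10, Foxd3 and Ret.

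Among the ligands, co-receptors and partners of RET, EDNRB and ERBB3, 3 of 16 tested had an unadjusted p under 0.05, near the 11.5% of all genes, and the median log2 fold change was -0.01. Gfra3, the artemin co-receptor that RET uses in sympathetic and sensory neurons, was at 1.85, 1.77 and 1.32 FPKM in KO embryos KOAC8-6, KOAC10-5 and KOAC10-8. It was at 2.60, 3.06, 3.91 and 2.84 FPKM in WT embryos KOAC8-1, KOAC10-7, KOAC9-1 and KOAC10-2, and the genotypes did not overlap (log2 fold change -0.63, SE 0.13, adjusted p = 0.274, limma). At 53.1% of the WT mean this was a larger difference than that of any of the 8 genes, while Ret and Gfra1 themselves overlapped. Egfr, a relative of Erbb3, gave -0.45 (adjusted p = 0.406) and Edn1, an endothelin that acts through Ednra in the pharyngeal arches, 0.23 (adjusted p = 0.435), both with overlap. As single embryos were left out, between 1 and 4 genes of the list were lower and between 0 and 1 higher at an unadjusted p under 0.05. In these fits 7.80% to 16.4% of all genes were under that threshold in either direction.

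In the autonomic and sympathoadrenal list 1 of 16 genes tested had an unadjusted p under 0.05, a smaller share than the 11.5% of all genes, with a median of 0.11 on the log2 scale. This was Ddc, the aromatic amino acid decarboxylase, at 6.96 ± 0.405 (KO) and 7.82 ± 0.218 FPKM (WT) (-0.15, adjusted p = 0.424, limma). Without KOAC8-6, KOAC8-1, KOAC9-1 or KOAC10-8 in turn, 0 genes of the list were lower at that threshold by limma. Without KOAC10-5, 2 were lower and 1 higher, where 16.4% of all genes were under it in either direction. With 0.1 or 0.01 in place of the 1 added to FPKM, 2 were lower and 0 higher (11.5% and 11.4% of all genes). The largest difference of the list, Dbh at -0.90 (SE 0.39, adjusted p = 0.440, limma), did not reach that threshold. The 13 sensory neuron genes tested had a median of -0.03. Of 14 genes of cranial crest mesenchyme 12 averaged higher in KO embryos, with a median of 0.04, and Prrx2, a paired-type homeobox gene of facial mesenchyme, had an unadjusted p under 0.05 (0.22, adjusted p = 0.312). The 5 melanoblast genes tested all averaged higher, with Pmel at 0.33, Dct at 0.14 and Mitf at 0.06, and 0 had an unadjusted p under 0.05 by limma.

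For other tissues that the whole embryo holds, counts under an unadjusted p of 0.05 by limma stand beside 11.5% of all genes. Nephric genes had a median of -0.01 with 2 of 7 (Wnt11 -0.54, Wnt9b 0.21). They had 0 with the label series as a block (8.69% of all genes), without KOAC8-6 (8.75%) or without KOAC9-1 (7.85%). Motor neuron genes, listed for the hindbrain and midbrain but not limited to them, had a median of 0.16 with 2 of 7 (Nkx6-1 0.38, Isl2 0.30). They had 0 with that block or without KOAC10-8 (7.80% of all genes). Central neuron genes had a median of -0.10 with 0 of 8 by limma. For liver genes the sign of the median turned with the embryos used. It was 0.24 over all 7 embryos, from -0.51 (without KOAC10-7) to 1.26 (without KOAC10-5) with single embryos left out, -0.66 with Afp as a covariate and -0.73 without the 3 embryos low in Afp. Of 10 liver genes 1 was lower at an unadjusted p under 0.05, Ttr at -1.40 (adjusted p = 0.0891, limma), against 7 with Afp as a covariate and 6 without those 3 embryos, where Ttr passed (adjusted p = 0.0386). The summed level of the liver genes ran from 31.1 to 569 FPKM over the KO and from 38.6 to 868 FPKM over the WT embryos. In KO embryos KOAC8-6, KOAC10-5 and KOAC10-8 Ttr was at 14.4, 15.3 and 15.1 FPKM, with Afp at 255, 5.18 and 308 FPKM. In WT embryos KOAC8-1, KOAC10-7, KOAC9-1 and KOAC10-2 Ttr was at 46.4, 32.3, 53.1 and 35.3 FPKM. Afp in these WT embryos was at 376, 1.30, 278 and 2.49 FPKM. All WT embryos were thus above all KO embryos in Ttr, those low in Afp included. The part of the liver in the Ttr values was not tested.

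**Figure D5:**
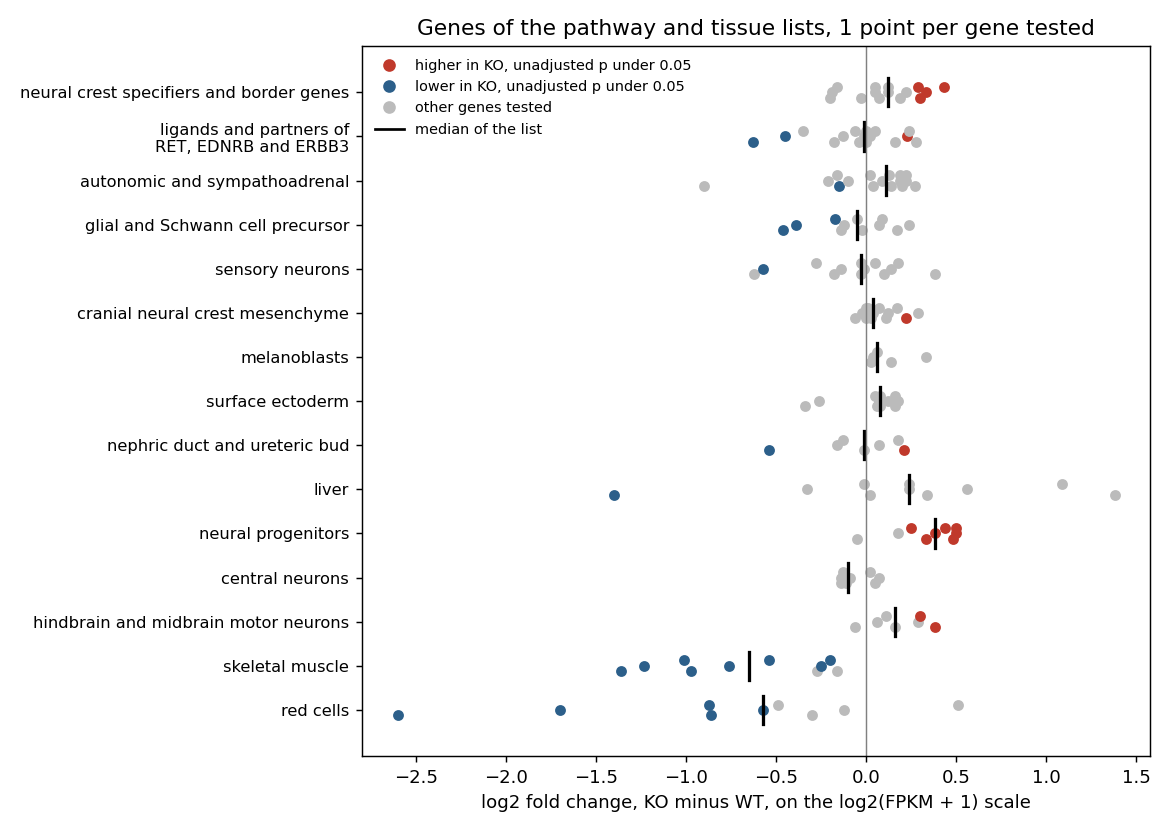
Log2 fold change, KO minus WT (horizontal axis, log2(FPKM + 1) scale), of each gene tested in 7 pathway lists and 8 lists of other tissues, with genes at an unadjusted limma p under 0.05 in red (higher in KO) or blue (lower in KO) and the median of each list as a bar. Medians run from -0.05 to 0.12 over the crest, glial, autonomic, sensory and melanoblast lists, and reach 0.38 for neural progenitors and -0.65 for skeletal muscle.

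In each of the 8 genes, the values of the 3 embryos low in Afp overlapped those of the other 4. These 3 embryos had 8.38 to 9.30 FPKM of Tfap2a against 7.33 to 10.53 FPKM in the other 4 embryos, and 7.09 to 8.69 against 6.52 to 8.82 FPKM of Erbb3. Leaving them out still moved several log2 fold changes. Sox10 went from -0.10 to 0.03, Ret from -0.03 to 0.15, Phox2a from -0.00 to 0.18, Foxd3 from 0.00 to 0.12 and Tfap2b from -0.01 to -0.16. Ednrb stayed at 0.03. With Afp or Xist as a covariate, the log2 fold change was 0.26 or 0.25 for Tfap2a and -0.24 or -0.23 for Erbb3.

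The annotation sets limits to some of these values. The libraries did not mark strand, and the exons of Tfap2a overlap 2 listed genes on the opposite strand, Gm26688 over 380 bases and Gm47061 over 265 bases, whose own levels were 0.486 to 0.939 and 0.287 to 0.541 FPKM. Of the 4838 stretches of 50 bases in Tfap2a transcripts, 493 also occur in transcripts of another gene. In Phox2a, 95 exon bases (4.67%) lie opposite exons of Inppl1, which was at 40.1 to 48.0 FPKM, and 2.32% of its 50-base stretches are shared. For Sox10, Ret and Erbb3 no such stretch is shared. Tfap2a and Tfap2b, the closest relatives among the 8 genes, share coding runs of at most 29 bases, so that longer reads can be told apart there. The longest shared run is shown because it bears on how far reads of these genes could be exchanged.

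Tfap2a and Tfap2b: acggccctgcagaactatctcaccgaggc

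RefSeq promoter windows (GRCm38.p6) were at hand for 5 of the 8 genes, Foxd3, Tfap2a, Tfap2b, Phox2a and Ednrb, with 2 starts for Tfap2a. The 250 bases before each start were searched for GCCNNNGGC, the letters that AP-2 factors are known to bind, on both strands, which read alike for this motif. It was found in 13.7% of 32851 windows of this length and in 1 of these 6, that of Ednrb. The windows of Tfap2a, the gene with the largest difference, and of Ednrb, the steadiest, are shown 5′ to 3′ on the strand of the gene, with the motif in capitals. They lie on the minus strand at chr13:40734921-40735170 and chr13:40733796-40734045 for Tfap2a and chr14:103843702-103843951 for Ednrb. A match describes the letters of the window only.

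Tfap2a, start 1: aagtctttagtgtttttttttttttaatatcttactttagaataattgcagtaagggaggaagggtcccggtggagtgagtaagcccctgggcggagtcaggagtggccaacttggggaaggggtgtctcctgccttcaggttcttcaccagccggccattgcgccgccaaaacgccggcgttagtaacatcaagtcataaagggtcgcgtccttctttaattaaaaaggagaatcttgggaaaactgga
Tfap2a, start 2: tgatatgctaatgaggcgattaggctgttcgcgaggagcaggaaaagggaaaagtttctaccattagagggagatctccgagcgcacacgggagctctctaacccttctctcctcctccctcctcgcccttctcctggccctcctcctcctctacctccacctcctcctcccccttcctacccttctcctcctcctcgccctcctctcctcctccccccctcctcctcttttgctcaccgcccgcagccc
Ednrb: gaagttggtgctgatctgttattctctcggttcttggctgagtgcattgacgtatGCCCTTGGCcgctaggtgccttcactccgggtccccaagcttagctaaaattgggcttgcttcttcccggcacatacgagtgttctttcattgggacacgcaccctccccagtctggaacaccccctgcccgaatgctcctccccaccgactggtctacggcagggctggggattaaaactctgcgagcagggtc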

How the data were processed

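The authors sequenced RNA of 7 whole E11.5 embryos (tails removed), 1 unstranded library per embryo (TruSeq RNA v2). Per the labels, the submitters' processing notes name Salmon, DESeq2, MultiQC and GRCm38, with no versions. The authors deposited FPKM per gene and embryo. These were already scaled by size factors, since median-ratio factors computed from them came to 1.004 in every embryo. The authors also deposited a mean normalised count per gene, used here as a signal for counting error only, and their own fold changes and p-values, which were not used. Depth was estimated from the steps of low FPKM values, of which 76.0 to 84.7% were whole multiples within 0.1.

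Log2(FPKM + 1) of genes averaging 1 FPKM or more was compared between KO and WT embryos with limma 3.58.1 (trend, two-sided) in R 4.3.3, with Benjamini-Hochberg adjustment. The script was checked on simulated data. Single values were compared by exact permutation of the 35 splits of 3 against 4 embryos, whose smallest p is 0.0286. No embryo pair had identical values. No label names a litter, and the meaning of the series number is not stated. The p-values treat the embryos as independent, and whether some shared a litter is not known. Coordinates came from GENCODE M21 (GRCm38) and promoter windows from RefSeq. In addition to the 8 genes and fixed partners, named genes were the members of each pathway list with an unadjusted p under 0.05, otherwise the 3 with the largest fold change, and up to 2 per list of other tissues. Dbh was named as well, as the largest difference of its list. Some genes that these rules name are not reported here, although counts, medians and adjustments include them. The genes and lists were chosen with earlier results of these data known. Alternatives were other pseudocounts, filters, scalings, weights, covariates, a block for the label series and each embryo left out.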

Additional observations from a re-analysis of the deposited data

Results flagged for a closer look

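In 4 of 46 genes examined, 1 WT embryo lay far from the other 3, with a gap to its neighbour that took more of the group's range than Dixon's critical value at 95%, and chance gives about 2.30 such genes (1 in 20). None of the 8 genes was among them. Nrg1 was lowest in WT embryo KOAC8-1 (0.950 of the range) and Egfr was lowest in WT embryo KOAC10-2 (0.937). Pmel (0.878) and Nkx6-1 (0.863) were highest in WT embryo KOAC10-2.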

How the results depend on the processing

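None of the 8 genes had an adjusted p under 0.05 in any of the 20 alternative fits. Tfap2a stayed higher in KO embryos in all of them (0.20 to 0.34, adjusted p 0.210 to 0.634) and Erbb3 lower (-0.27 to -0.18, adjusted p 0.275 to 0.643). Erbb3 had an unadjusted p over 0.05 without KOAC10-8 and without the 3 embryos low in Afp, an alternative chosen after seeing the data. The number of the 8 genes with an unadjusted p under 0.05 ran from 1 to 2 when single embryos were left out and was 1 without the low-Afp embryos. The median log2 fold change of the 8 genes ran from -0.062 (without KOAC10-8) to 0.045 (without KOAC10-5) and was 0.074 without the low-Afp embryos. Over all genes, calls after adjustment ran from 7 to 12 with single embryos left out (12 without KOAC8-1), and were 10 with Afp as a covariate and 17 without the low-Afp embryos. The cause was not tested. Foxd3, Phox2a and Ret fall out of the test at a minimum mean of 5 FPKM. The labels give no replicate numbers to pair. The label series as a block changed no call of the 8 genes, but gave 0 nephric, 0 motor neuron and 1 glial gene (from 2, 2 and 3) under an unadjusted 0.05. The share of all genes under it was 8.69% with the block, from 11.5%. Depth limits Phox2a most, at 148 counts on average.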
